A study of Homo sapiens with 2 samples.

Results

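Of the 58201 non-control probes printed on both arrays, 10719 (18.4%) carried a transcript name beginning with lnc-, and these long noncoding probes are described here. They were chosen by that name alone, with no use of their signal. The name holds the symbol of a neighbouring gene, a locus number and, after the colon, a transcript number, so that lnc-MAPK10-1:1 is transcript 1 of the first locus named after MAPK10. The 10719 probes covered 10175 transcript names in 8765 loci, of which 7226 had 1 probe and 1539 had several, up to 10 at lnc-SNURF-3. The loci were named after 5675 symbols, and the symbol was found in RefSeq for 10018 of the probes (93.5%), giving 5317 neighbour genes.

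Long noncoding RNAs are transcripts that are not known to code for a protein, and many are made at low levels from loci between or opposite protein-coding genes. Some act on transcription or chromatin near the place where they are made, and others act elsewhere in the nucleus or in the cytoplasm. In pluripotent stem cells, several are known to be made from, or close to, the genes of the pluripotency network. The noncoding status of the transcripts described here rests on the annotation of the array.

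Both arrays held RNA of H9, an established human embryonic stem cell line, kept without feeder cells in TeSR-E8 medium. The study kept H9 on vitronectin and moved cells of passage 35 to Matrigel, a basement membrane extract. The labels do not name the matrix of either sample, so whether it differed between the arrays is not known. Substate 1 was 1 sample at passage 35 and substate 2 was 1 sample at passage 50, so that passage number and substate cannot be told apart. The labels name no genetic change and no added agent for either. In the study, the substates are told apart by their staining with the antibody R-10G, which is stronger in substate 1, and by vimentin, which marks substate 2, whose cells also stand further apart. Each substate had 1 array, both on the same slide, so no spread between cultures is known and no test between the substates was possible. Each of the 10719 probes was printed as 1 spot, and the only error of a single probe is the one the scanner software gives. The stem cell markers POU5F1, NANOG, SOX2, LIN28A, DNMT3B and L1TD1 were detected in both substates and were 0.18 to 0.42 higher in substate 2 on the log2 scale. Not all genes of pluripotency went that way, with differences of -0.65 for DPPA2 and -0.43 for NODAL. Between the substates, VIM was higher by 2.53 and ZEB1 by 2.54 in substate 2, and the differences were -1.47 for CDH1 and -0.80 for EPCAM.

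The sequences of the printed oligonucleotides were not analysed here. For 11 of the lnc- loci, with 14 probes, RefSeq lists the lnc- name as an alias of a named noncoding gene, and 3 of these probes had signal above background in both substates. The start regions of 2 of those genes are shown because they are the sequences that belong to measured members themselves. They are joined by one start region of MAPK10, which was the neighbour that differed by 2-fold or more in the same direction as its lnc- probe, a choice made after the values were seen. Each window runs from 250 bases before to 50 bases after a transcript start, in RefSeq coordinates of GRCh38.p14, whereas the array was annotated on hg19. Capitals mark CG, the dinucleotide at which vertebrate DNA is mostly methylated.
LINC02682, the gene of lnc-SOX6-1, plus strand of chr11:15910683-15910982: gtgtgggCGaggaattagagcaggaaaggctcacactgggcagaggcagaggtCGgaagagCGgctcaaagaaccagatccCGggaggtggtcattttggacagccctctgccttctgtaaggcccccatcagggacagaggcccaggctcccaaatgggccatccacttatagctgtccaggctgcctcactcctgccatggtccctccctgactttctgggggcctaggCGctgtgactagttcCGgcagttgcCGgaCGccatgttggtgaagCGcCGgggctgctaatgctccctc
MAGEB17-AS1, the gene of lnc-AP1S2-2, minus strand of chrX:16168630-16168929: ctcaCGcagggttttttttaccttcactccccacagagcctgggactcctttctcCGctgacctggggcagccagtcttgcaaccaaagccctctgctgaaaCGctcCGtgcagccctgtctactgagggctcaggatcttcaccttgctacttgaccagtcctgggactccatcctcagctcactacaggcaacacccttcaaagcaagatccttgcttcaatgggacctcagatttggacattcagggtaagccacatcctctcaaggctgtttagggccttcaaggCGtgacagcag
MAPK10, minus strand of chr4:86360004-86360303: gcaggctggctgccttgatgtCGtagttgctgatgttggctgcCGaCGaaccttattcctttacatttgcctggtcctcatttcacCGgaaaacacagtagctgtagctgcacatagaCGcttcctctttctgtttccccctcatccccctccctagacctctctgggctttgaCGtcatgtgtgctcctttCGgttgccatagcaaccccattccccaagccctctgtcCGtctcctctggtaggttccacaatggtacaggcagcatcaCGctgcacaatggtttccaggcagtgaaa
These windows held 10, 5 and 9 CG, against a median of 14 over the 35116 windows of the same length in the table. Other start windows of MAPK10, which are not shown, held 1 and 0 CG. Because ZEB1, a repressor that binds E-boxes, was among the genes with more RNA in substate 2, the letters CACCTG and their other strand CAGGTG were looked for. No match was found in the 3 windows shown, and 20.6% of all windows hold one. The RNA of LINC02682, read by lnc-SOX6-1:1, went from a signal of 413.6 in substate 1 to 221.6 in substate 2, which is a difference of -0.71 ± 0.21 (scanner error). That of MAGEB17-AS1, read by lnc-AP1S2-2:1, gave 55.7 and 37.6, a difference of -0.38 ± 0.26. For LINC00649, lnc-ITSN1-2:5 differed by -0.17, while its curated probes differed by 0.90 and -0.22, so the probes of 1 gene did not go one way.

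By the mark of the scanner software, most of the lnc- probes were not above background in either substate. A probe was called measured where the scanner software marked its spot as well above background. By that mark, 2689 lnc- probes (25.1%) were measured on both arrays, 580 (5.41%) on the substate 1 array only, 190 (1.77%) on the substate 2 array only and 7260 (67.7%) on neither. At the level of loci, 2407 of 8765 had a probe measured on both arrays and 5683 had none on either. Among probes with a curated mRNA accession 75.1% of 25277 were measured on both arrays, against 41.2% of 6493 curated noncoding probes, 32.8% of 9747 Ensembl transcript probes and 31.9% of 1249 TCONS probes, another class of predicted noncoding transcripts. The lnc- probes thus had the lowest share of these classes.

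More lnc- probes were measured in substate 1 only than in substate 2 only, with a ratio of 3.05. The ratio was 2.96 over all probes, 2.50 over the mRNA probes and 5.29 over the TCONS probes. The substate 1 array was the brighter one, with a 75th percentile of signal of 313.7 against 275.4, and the 99th percentile of its negative control spots was 4.48 against 7.27 in substate 2. The part of these in the surplus was not tested. Where a probe counted as measured at any signal above that 99th percentile, 4245 lnc- probes were measured on both arrays, 1817 in substate 1 only, 394 in substate 2 only and 4263 on neither, so that by this rule the probes on neither array were no longer the majority.

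Normalised signal is given below as log2 of the processed signal minus the 75th percentile of its array, so that 0 is the level of the 75th percentile, and a difference is substate 2 minus substate 1. The 2689 measured lnc- probes had a median level of -2.25, with quartiles of -3.11 and -0.89, and the mRNA probes had a median of 0.82. A level depends on the probe as well as on its transcript. Across the measured lnc- probes the arrays correlated with Pearson's r = 0.972, against 0.990 across the mRNA probes, a description of 2 arrays in which probes of neighbouring loci share transcripts.

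The median difference of the measured lnc- probes was -0.04, with quartiles of -0.32 and 0.24. Of the 2689, 2269 (84.4%) differed by less than 1.5-fold, against 88.9% of all measured probes and 90.8% of the mRNA probes. The median difference of the mRNA probes was 0.09. The gap of 0.13 between these medians was 0.06 after quantile normalisation, 0.05 after loess centring and 0.03 after normexp background correction, and the lnc- median itself turned to 0.01 with median centring and to 0.05 with normexp, so its sign is not settled. The differences of the lnc- probes had an SD of 0.44, against 0.37 for the mRNA probes. At equal signal the order changed with the level. Between levels of -3 and -2 the SD was 0.47 for 767 lnc- probes and 0.50 for 1774 mRNA probes, whereas above a level of 2 it was 0.39 for 124 lnc- probes and 0.27 for 6441 mRNA probes.

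A difference of 2-fold or more was seen for 78 of the measured lnc- probes, 20 higher and 58 lower in substate 2. Higher were thus 0.744% of the lnc- probes, against 0.85% of all 29883 measured probes, and lower were 2.16%, against 1.26% of all. Either way it was 2.11% over all measured probes, which were brighter than the lnc- probes. At equal level the order changed. Between levels of -4 and -3, 2.76% of the lnc- and 5.54% of the mRNA probes differed by 2-fold either way. The shares were 3.65% and 4.96% between -3 and -2, 3.47% and 3.57% between -2 and -1, but 4.61% and 2.22% between -1 and 0. From 0 to 2 they were 0.337% and 1.01%, and above 2 they were 0% and 0.388%. The lnc- share was thus the higher one only between -1 and 0. All 78 differed from the median by over 2 scanner errors, as did 619 (23.0%) of the measured lnc- probes and 19.5% of all. The largest error among the 78 was 0.38, so being past 2-fold was enough to pass 2 errors, and this lends the calls no support. With median centring, quantile normalisation or loess, 70, 71 and 70 of the 78 were still past 2-fold, but with normexp, which adds an offset of 50 and so draws dim spots together, 9 were, 4 higher and 5 lower. No lnc- probe brighter than the median of all measured probes was 2-fold higher, and 1 was 2-fold lower, so the calls described here are nearly all calls on dim spots.

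By a bound, 59 of the 190 lnc- probes measured in substate 2 only were at least 2-fold higher there, against a background of 31.4% of all such probes. Of the 580 measured in substate 1 only, 42 were at least 2-fold lower in substate 2, against a background of 7.13%. The bound sets the signal of the measured array against the higher of the unmeasured spot and the lowest signal called well above background on that array, which was 14.5 in substate 1 and 15.03 in substate 2. It could be given for 687 of the 770 probes measured on 1 array.

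Several of the largest differences lay side by side on the slide. For each spot, the 24 nearest non-control spots were searched for differences of 4-fold or more. A spot was called crowded on the high side where 3 or more of the 24 were higher in substate 2, which held for 0.951% of all spots, and on the low side where 2 or more were lower, which held for 0.946%. Of the 20 lnc- probes that were 2-fold higher, 5 (25%) were crowded on the high side, and of the 59 that were higher by their bound, 12 (20.3%) were. On the low side it was 2 of the 58 lower probes and 4 of the 42 that were lower by their bound. Over all probes, 7.48% of those 2-fold higher and 16.5% of those higher by a bound were crowded on the high side. Without crowded spots, 15 lnc- probes (0.572%) were higher, 55 (2.10%) lower, 47 of 175 higher by a bound and 38 of 564 lower by a bound. Over all probes without crowded spots, 0.786% were higher and 1.23% lower, with 216 of 769 higher by a bound and 163 of 2388 lower by a bound. The scanner software marked no lnc- spot as an outlier on either array. Beside each named probe that is crowded, this is said below, and what made neighbouring spots differ together was not tested.

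Among lnc- probes measured on both arrays, the 3 largest differences were all crowded on the high side. The probe lnc-VRK1-5:8, from a locus named after the nuclear kinase VRK1, had a signal of 40.7 ± 5.20 in substate 1 and 484.6 ± 48.6 in substate 2 (scanner error), levels of -2.95 and 0.82. It was 13.6-fold higher in substate 2, by 3.76 ± 0.23. Of its 24 nearest spots, 7 were also higher by 4-fold or more. VRK1 itself differed by 0.15, and the sister probe lnc-VRK1-5:9 was measured on neither array.

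The next was lnc-ROM1-2:1, near the gene of a photoreceptor disc protein, with a signal of 23.4 in substate 1 and 121.3 in substate 2. It was higher by 2.56 ± 0.33, while ROM1 differed by 0.02. The third was lnc-TRPM6-4:1, at 34.8 and 151.0, higher by 2.30 ± 0.27. TRPM6, a magnesium channel, was on the contrary lower in substate 2, with a difference of -1.43. That value rests on 1 probe, at a level of -3.92 in substate 2, where the lowest level called well above background was -4.20. Both lnc- probes, lnc-ROM1-2:1 and lnc-TRPM6-4:1, had 5 higher spots among their nearest 24, and each lay among the nearest spots of the other. Elsewhere on the slide, lnc-SMC1B-1:1, near a cohesin gene of meiosis, was at 47.5 and 136.8 and higher by 1.71, again with 5 such spots. With 3 such spots, lnc-MAP1LC3C-1:1, near a gene of the autophagy machinery, was at 20.4 and 55.4 and higher by 1.63.

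Of the probes measured on both arrays with no crowding on either side, lnc-AC105020.1-1:1 was the most different in the high direction. Its signal was 18.4 ± 3.92 in substate 1 and 73.5 ± 8.23 in substate 2, a difference of 2.18 ± 0.35 or 4.54-fold. Its neighbour symbol was not matched to a current gene. The brighter lnc-KIAA0087-2:1, on chromosome 7 by its neighbour, was at 61.2 ± 7.04 and 211.1 ± 21.4, a difference of 1.97 ± 0.22. None of its 24 nearest spots was higher by 4-fold, and KIAA0087 itself was measured on neither array.

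Then came lnc-LRRC8D-2:1, named after a subunit of the volume-regulated anion channel, with signals of 29.1 and 76.9 and a difference of 1.59. LRRC8D differed by -0.02, so the lnc- probe and the gene did not go together. The cartilage matrix gene CHAD gave its name to lnc-CHAD-5:1, which was at 15.7 and 40.6, higher by 1.56. The probe lnc-C10orf122-2:1, near the testis-expressed gene now called TEX36, was at 23.4 and 53.6, higher by 1.38. Neither CHAD nor TEX36 was measured on both arrays. At lnc-STK35-2:5, near a kinase gene, signals of 27.1 and 56.5 gave a difference of 1.25, with 0.36 for STK35. The first probe outside these 12, lnc-RNASET2-1:1, was higher by 1.13.

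The one probe among the 12 whose neighbour was higher by 2-fold too was lnc-MAPK10-1:1. MAPK10 codes for JNK3, a stress-activated kinase found mainly in neurons. The lnc- probe had a signal of 31.3 ± 4.83 in substate 1 and 69.0 ± 8.02 in substate 2. It was 2.51-fold higher, by 1.33 ± 0.28. MAPK10, as the mean of 2 probes, went from -2.69 to -1.22, a difference of 1.47. The lnc- spot had no 4-fold difference among its 24 nearest spots.

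On the low side, the largest difference between probes measured on both arrays was that of lnc-ADAM2-1:1, named after a sperm surface protein. Its signal was 519.2 ± 52.0 in substate 1 and 100.6 ± 10.6 in substate 2, levels of 0.73 and -1.45. It was 4.53-fold lower in substate 2, by -2.18 ± 0.21, and it was the brightest of the 12 largest decreases. ADAM2 itself was measured on neither array. None of the 12 was crowded on either side.

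The next was lnc-ARF5-5:3, with signals of 89.7 and 22.1 and a difference of -1.83. ARF5, a small GTPase of the Golgi, was in contrast slightly higher, by 0.30. For lnc-PLEKHA5-1:1 the signals were 370.6 and 96.1, a difference of -1.76, and PLEKHA5 differed by -0.42. The homeodomain gene PKNOX1 had the probe lnc-PKNOX1-1:1 at 82.6 and 21.6, a difference of -1.75, while the gene differed by -0.36. DISC1, a scaffold protein of neural development, differed by -0.25, and lnc-DISC1-2:1 was at 55.7 and 15.2, a difference of -1.69.

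Other pairs also went the same way with a smaller change in the gene. At lnc-PHLPP2-1:1, near a phosphatase that acts on AKT, the signals were 373.1 and 109.8 and the difference -1.58, with -0.51 for PHLPP2. At lnc-MYO6-2:1, near the motor protein myosin VI, they were 281.0 and 83.0 and the difference -1.57, with -0.67 for MYO6. The others had no such company. The probe lnc-HTR1A-1:1, named after a serotonin receptor that was not measured on both arrays, was at 281.9 and 85.5, a difference of -1.53. The ceramide synthase gene CERS5 differed by -0.03 while lnc-CERS5-1:1 went from 183.5 to 56.7, a difference of -1.51. CAMK1G, a calmodulin-dependent kinase, was higher by 0.44, and lnc-CAMK1G-1:6 was at 119.4 and 37.2, a difference of -1.49.

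Because every lnc- probe was a single spot, the other probes of its locus are the one check on it within these arrays. There were 226 loci with at least 2 measured probes, 508 probes in all. In 134 of them (59.3%) all measured probes lay on the same side of the median of all probes, against 71.0% of 3788 mRNA genes with several probes. Taken singly, 41.8% of the measured lnc- probes and 54.5% of the measured mRNA probes lay above that median. The median range within a locus was 0.34, against 0.17 within those genes, whose signal was higher. The widest range was 1.41, at lnc-IL23A-2. In 11 loci a probe was past 2-fold, and in 3 every measured probe was, each time lower in substate 2.

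The clearest of the 3 was lnc-MMRN1-2, a locus on chromosome 4 named after multimerin, a protein of platelets and endothelium. In substate 1 its 4 measured probes had signals of 322.2 for transcript 1, 311.7 for transcript 2, 261.9 for transcript 5 and 124.6 for transcript 6. In substate 2 they had 128.9, 93.5, 100.04 and 42.0 in that order. The differences were -1.13, -1.55, -1.20 and -1.38, each with a scanner error of 0.21 to 0.24. The 4 probes went one way, and none of their spots was crowded. Of the other 3 probes of the locus, one for transcript 3 was measured in substate 1 only, at 15.8 against 3.28, and the remaining 2 were measured on neither array. MMRN1 had no probe measured on both arrays.

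At lnc-LGALSL-1, next to the galectin-like gene LGALSL, transcript 2 went from 198.3 to 60.3, a difference of -1.53, and transcript 1 from 65.4 to 27.7, a difference of -1.05. LGALSL itself was higher by 0.20. At lnc-STAG3L4-1 the 2 measured probes were at 60.1 and 38.8 in substate 1 and at 21.4 and 16.7 in substate 2, differences of -1.30 and -1.03, with 0.09 for STAG3L4. Loess centring left 1 locus with every probe past 2-fold and normexp left 0. Just short of the limit, lnc-ALX1-2 had -1.05 and -0.99, and lnc-CNBD1-4 had -1.11 and -0.99.

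Some neighbours carried many probes, and at several of these the probes lay on one side. Of 15 neighbours with 4 or more measured lnc- probes, all measured probes lay below the median of all probes at 5 and above it at 1, groups that were looked at after the values were known. Over all measured lnc- probes, 41.8% lay above that median, so the low side was the more common one for lnc- probes in general. Probes of 1 locus can also share transcripts. SNURF, a gene of the imprinted region of chromosome 15 that shares its transcript with SNRPN, had 19 probes in 3 loci, 16 of them measured. Of the 16, 15 lay below the median of all probes, from -0.67 to 0.20 with a median of -0.39. The brightest, lnc-SNURF-1:8, went from a signal of 13549.6 to 8868, a difference of -0.42. The 8 measured probes of lnc-SNURF-1 ran from -0.48 to -0.31, a narrow range for probes whose signals in substate 1 ran from 661.5 to 13549.6.

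SNURF itself was higher in substate 2 by 0.17. NPAP1, in the same imprinted region, had 12 lnc- probes, and the 7 that were measured all lay below the median of all probes, from -0.92 to -0.19. They were dim, with no signal over 75.3, and NPAP1 differed by -0.53. No SNURF or NPAP1 probe that was measured was crowded. All 4 measured probes near ZNF609, also on chromosome 15, were lower, from -0.83 to -0.25. In the other direction, the 5 probes of lnc-SRGAP3-1, near a GTPase-activating protein of neurons, ran from 0.09 to 0.80, with 0.34 for SRGAP3.

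Differences in lnc- probes and in the genes they are named after were then set side by side. A lnc- probe and its neighbour were both measured for 2031 pairs, from 1823 loci and 1590 genes. Across the pairs Pearson's r was 0.05 and Spearman's rho 0.05, a description of 2 arrays in which several pairs share a gene. In 1027 pairs (50.6%, Wilson 95% interval 48.4% to 52.7%, which covers counting only) both lay on the same side of the median. With the 352 brighter lnc- probes alone rho was 0.08. Without crowded spots rho was 0.06 and 50.8% of pairs were on the same side.

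Where the lnc- probe was 2-fold or more different, in 57 pairs, 48 neighbours differed by less than 1.5-fold. Over all measured probes of their kind, 90.8% of mRNA probes and 84.4% of lnc- probes differed by less than that. The signs were the same in 23 of the 57 and opposite in 34. Of these 57 lnc- probes 44 were lower in substate 2, whereas the neighbours of all pairs had a median difference of 0.10. The count of opposite signs therefore does not show that probe and neighbour were opposed. Where the neighbour was 2-fold or more different, in 27 pairs, 21 lnc- probes differed by less than 1.5-fold, and the signs were the same in 15 and opposite in 12. The histone gene H1-1 shows this, with a difference of -1.62 beside 0.01 for lnc-HIST1H1A-1:2. So does NNAT, an imprinted gene of neural tissue, which was higher by 1.39 while lnc-NNAT-1:1 differed by -0.20. FST, an antagonist of activin, was higher by 1.35 beside -0.37 for lnc-FST-1:1. These 3 were picked after their values were seen.

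Both members were 2-fold or more different in 3 pairs, those of MAPK10, TRPM6 and CDH1, and the last 2 were opposed. CDH1 codes for E-cadherin, the adhesion protein of epithelia and of stem cell colonies. Its level went from 4.91 in substate 1 to 3.44 in substate 2, a difference of -1.47. The probe lnc-CDH1-1:1 went from a signal of 17.9 ± 3.78 to 31.8 ± 4.75, a difference of 1.02 ± 0.37. Its signal in substate 1 lay close to the lowest one called well above background there. With both members past 1.5-fold there were 28 pairs, 19 with the same sign and 9 with opposite signs. A lnc- probe was measured on both arrays somewhat more often where its neighbour was. The share was 26.3% of 7709 probes with a measured neighbour and 19.8% of 1599 whose neighbour was measured on neither array.

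The probes near genes of the pluripotency network were few and, like the lnc- probes as a whole, mostly at background. Over all lnc- probes, 25.1% were measured on both arrays and 67.7% on neither. Of 27 such probes, 6 were measured on both arrays, 1 on one and 20 on neither, and the 3 probes of lnc-SOX2-1 were among the last. The 6 had differences of 0.07 to 0.87 with a median of 0.40, against a median of 0.06 over all measured probes. The highest was lnc-ZFP42-7:2, near the gene of the stem cell marker REX1, with levels of -3.11 and -2.24. Next were lnc-LIN28B-1:4 with 0.56, lnc-PRDM14-1:1 with 0.45 and lnc-JARID2-1:1 with 0.36. None of the 6 reached 2-fold. By its bound, lnc-SALL1-1:1 did, with a signal of 3.49 in substate 1 and 42.5 in substate 2, at least 3.35-fold higher, beside 0.49 for the transcription factor SALL1.

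Near genes of the neural ectoderm there were 74 lnc- probes. Of these, 14 were measured on both arrays, 3 on one and 57 on neither, where all lnc- probes had 67.7% on neither. Their median was 0.09, and 1 was 2-fold lower and 0 were 2-fold higher. The lower one was lnc-IRX3-4:5, with signals of 91.4 ± 9.59 and 38.1 ± 4.88 and a difference of -1.08 ± 0.24. IRX3, a homeobox gene of the neural plate, was by contrast higher by 0.92. The 3 probes near POU3F2, a neural transcription factor, were at background on both arrays.

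At background on both arrays were 67.7% of all lnc- probes, a share to set beside the next 2 lists. Among the 42 probes near genes of neurons and axons, 37 were at background, all 6 near GAP43 and all 5 near the receptor NTRK2 included. Of the rest, 1 was measured on both arrays and 4 in substate 2 only. The first was lnc-MAPK10-1:1. The 4 included lnc-NRXN3-1:1 and lnc-ROBO2-1:1, and all 4 bounds were under 2-fold. Measured in substate 2 only were 1.77% of all lnc- probes and 1.42% of all probes, and 4 probes are too few to compare with these shares. Near genes of the mesenchymal transition, 13 of 16 were at background, lnc-ZEB1-2:1 and both probes of lnc-VIM-1 among them, although VIM and ZEB1 were among the genes that differed most. The 2 measured ones were lnc-TCF4-1:3 with 0.40 and lnc-COL1A1-3:1 with -0.13.

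Epithelial neighbours showed lnc- probes on both sides. Of 20 probes, 8 were measured on both arrays, with a median of 0.20, and lnc-CDH1-1:1 was the one past 2-fold. The lowest were lnc-MARVELD3-1:1 with -0.81, beside -0.98 for the tight junction gene MARVELD3, and lnc-CDH3-1:1 with -0.63, beside -0.93 for P-cadherin. A second MARVELD3 locus, read by lnc-MARVELD3-2:1, differed by 0.04, and lnc-GRHL2-1:1 by 0.36 beside -1.12 for the epithelial factor GRHL2.

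Of 45 probes near mesendoderm genes 7 were measured on both arrays, with a median of 0.02, a lowest difference of -0.30 for lnc-ID1-1:1 and a highest of 0.52 for lnc-FOXA2-1:3. Of 47 near signalling genes 15 were measured, with a median of 0.17. The lowest was lnc-HES1-3:2 with -0.76, beside -0.83 for the Notch target HES1. The highest was lnc-FGF10-3:8 with 0.61, one of 3 measured probes of that locus, which were all higher, the others by 0.23 and 0.33. Of 12 near candidate genes of the study 2 were measured, with 0.04 for lnc-PPP1R12B-1:1 and 0.19 for lnc-COL9A2-1:1. Pluripotency was the one list with at least 3 measured probes in which every one lay above the median of all probes, as seen after the values were known. That rests on 6 probes, and 2 of them were of 1 locus, lnc-ZSCAN10-3, at 0.073 and 0.216. The lower of these was within the replicate spot SD of 0.072 from the median of 0.055. Over all measured lnc- probes, 41.8% lay above that median.

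Among the probes measured in 1 substate, the largest bound was that of lnc-UNG-1:1, near the gene of a uracil-DNA glycosylase. Its signal was 8.31 ± 3.34 in substate 1 and 784.1 ± 78.5 in substate 2, at least 61.8-fold higher. It was crowded, with 6 of its 24 nearest spots higher by 4-fold or more, and lnc-VRK1-5:8 and lnc-DAOA-1:1 were among these. The sister probe lnc-UNG-1:2 was measured on both arrays, at 53.7 and 44.4, a difference of -0.09, and UNG differed by 0.28. With 8 such spots, lnc-DAOA-1:1 was at 3.23 and 82.0, at least 6.46-fold higher.

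The other 4 of the 6 largest bounds were not crowded. They were lnc-TAS2R1-3:1, near a bitter taste receptor gene, at 13.3 and 83.8 or at least 6.60-fold higher, and lnc-THBS3-1:1, near a thrombospondin gene, at 14.3 and 77.3 or at least 6.09-fold. The probe lnc-CRABP2-1:2, near the gene of a retinoic acid-binding protein, was at 4.74 and 73.5 or at least 5.79-fold higher, beside 0.27 for CRABP2. Another probe of the same name, printed elsewhere, was at 14.5 and 22.8 and was crowded on the high side. The sixth was lnc-SIK1-4:18 at 11.2 and 70.6, at least 5.56-fold higher, beside 0.29 for the kinase SIK1.

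Lower by a bound, lnc-ALPK3-1:1, near a kinase gene of the heart, led with 144.7 ± 14.8 in substate 1 and 12.8 ± 3.54 in substate 2, at least 8.45-fold lower. It was crowded on the low side, with 2 lower spots, as were lnc-ROS1-1:1 at 55.7 and 4.10, at least 3.25-fold lower, and lnc-SNAPC2-1:1 at 55.5 and 8.10, at least 3.24-fold lower. The last 2 lay among the nearest spots of each other. Not crowded were lnc-CDK9-1:2, near the kinase of transcription elongation, at 84.6 and 11.2 or at least 4.94-fold lower, lnc-CHIC1-2:1 at least 3.57-fold lower, and lnc-MUC20-2:3 at least 3.17-fold lower. CDK9 was higher by 0.34.

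A few lnc- probes were very bright, and these hardly differed. The spot of lnc-WWC2-1:1 had the highest mean normalised signal of all 58201 probes, at 363955 in substate 1 against 395309 in substate 2. The difference was 0.31 ± 0.20, and the spot was crowded on the low side. WWC2 itself was at -0.19 and -0.45. Then came lnc-C20orf96-1:1 with 0.33, lnc-TPSAB1-1:1 with 0.38, lnc-BEGAIN-1:1 with 0.31 and lnc-MEPCE-1:1 with 0.36. The one that differed more was lnc-SERHL2-3:1, at 65539 and 96342, a difference of 0.74 ± 0.20, beside -0.75 for SERHL2. With loess centring the first 5 lay between 0.04 and 0.16, and lnc-SERHL2-3:1 was at 0.52.

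By the study's own rule of size, a Z-score over all probes of 2 or more either way, 970 lnc- probes (9.05%) were past the limit, 460 higher and 510 lower. Over all probes it was 6.33%, 3.03% higher and 3.3% lower. Of the 970, 41 were measured on both arrays, 266 on one and 663 on neither. Over all probes, 2340 of the 3685 past the limit were measured on neither array.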

How the data were processed

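RNA of H9 cells in substate 1 and substate 2 was labelled with Cy3 and hybridised to 1 single-colour Agilent human gene expression array each. The authors deposited the scanner output of Agilent Feature Extraction 11.5.1.1 (array annotation on hg19), in which the processed signal is a background-subtracted intensity, and a table of log2 values, which the authors had shifted to the 75th percentile of each array. These values were checked against the scanner output. From the deposited intensity, log2 was taken after a floor of 1, outlier spots were left out, spots of 1 probe were averaged and the 75th percentile of the array over all non-control probes was subtracted. Each array holds 62976 spots, of which 308 are negative controls. Replicate spots of other probes had a median SD of 0.047 and 0.054 (log2), or 0.072 for a difference.

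The lnc- probes, lists and neighbour groups were chosen with earlier results of these data known. A neighbour symbol was matched to RefSeq as written (8962 probes) or through an older symbol (1056), and its value was the mean of its measured probes with a curated accession. With 1 array per group, no test was run and sizes are given: 2-fold, a bound for probes measured on 1 array, and the Z-score of the study. The named probes were the 12 largest differences each way among those measured on both arrays, the 6 largest bounds each way, the 6 brightest, the loci with every measured probe past 2-fold, and probes past 2-fold whose neighbour was on a list. Others named in the text were chosen after their values were seen. Some loci are not reported here. The calls were run on simulated data made from values already scaled, so the scaling itself was not tested. The planted differences were far above the simulated noise, and that noise was below the scanner error of these probes. The run therefore says nothing about calls on dim single spots.

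Alternatives were median centring, quantile normalisation, loess centring (span 0.3), normexp background correction (offset 50, on the median signal and the median background, since the scanner files used here hold the median signal in place of the planned mean signal), the authors' log2 values, outlier spots kept, bright probes only, limits of 1.5-fold and 3-fold, other detection rules and other ways to pair or match neighbours. Leaving out differences within 2 scanner errors and leaving out crowded spots were added after the data were seen. Python 3.11.15, numpy 2.4.6, pandas 2.3.3, scipy 1.17.1, R 4.3.3 and limma 3.58.1 were used.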

Additional observations from a re-analysis of the deposited data

How the results depend on the processing

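No paired analysis was possible because only 1 array stood for each of the groups. With 1 spot per lnc- probe and 1 culture per substate, no difference has a replicate check, and most measured lnc- probes lie close to background, which limits what can be seen.

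The counts of lnc- probes 2-fold higher and lower on both arrays (20 and 58) and by a bound (59 and 42) were 4, 5, 7 and 1 with normexp. With bright probes only they were 0, 1, 0 and 0. At a limit of 1.5-fold they were 144, 276, 134 and 133, and at 3-fold 8, 5, 25 and 8. Those moved by less than 1.5 times under median centring, quantile normalisation, loess, the authors' log2 values and outlier spots kept, and without crowded spots (15, 55, 47 and 38). Detection by the 99th percentile of the negative controls gave 4245 probes on both arrays, 1817 in substate 1 only, 394 in substate 2 only and 4263 on neither. The Z-score counts (460 higher, 510 lower) were 95 and 224 with normexp, 45 and 144 over probes measured on both arrays, and 1043 and 1385 with an SD from the median absolute deviation. The median lnc- difference of -0.04 was 0.054 with normexp. Loci with every probe past 2-fold numbered 3, but 1 with loess and 0 with normexp. The correlation with the neighbour and the share on the same side did not move past their tolerance under any alternative run.

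Of the 54 named probes, 50 moved by more than the spot error with normexp, 8 with loess and 10 with quantile normalisation, and none of those named for a difference changed sign. The cause of these shifts was not tested.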
